A study of Rattus norvegicus with 23 samples.

Results

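The nitric oxide synthases Nos1 and Nos3 were followed as RNA in rat brain cell aggregates, spheres that dissociated embryonic brain cells form in culture, after sepiapterin or its vehicle. Libraries were made from polyadenylated RNA with a stranded kit. The genes were chosen by Ensembl identifier: Nos1 (ENSRNOG00000001130), the neuronal synthase, Nos3 (ENSRNOG00000009348), the endothelial synthase, and Nos2 (ENSRNOG00000011023), the inducible synthase. Of these 3 genes, 2 have values here among 32494 gene identifiers, and Nos2 was not analysed here. Nos1 passed the filter on low counts, which 14035 genes passed, and Nos3 did not.

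All groups were aggregates of brain cells of Sprague Dawley rats at embryonic day 15, cultured for 14 days with constant shaking. Sepiapterin groups received 120 ng/ml and were sampled at 6, 12 and 24 hours (T6, T12 and T24), with 3 libraries each. Control groups received phosphate-buffered saline (PBS) and were sampled at the same times, with 3 libraries each, and a control group of 3 libraries was taken at 0 hours (T0). A further 2 libraries repeated the T12 controls numbered 10 and 11, which makes 9 sepiapterin and 14 control libraries. By label T6 and T12 were prepared in a first library batch, and T24 in a second one together with the repeats. For T0 no source used here names a batch.

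Nitric oxide synthases turn arginine into citrulline and nitric oxide, a gas that activates soluble guanylate cyclase in nearby cells. Each active enzyme is a dimer that holds tetrahydrobiopterin at the interface, next to the heme, and without enough of this cofactor the enzyme releases superoxide. Cells make tetrahydrobiopterin from sepiapterin by the salvage pathway, so sepiapterin supplies a cofactor of these enzymes. In brain, Nos1 is made by scattered neurons, many of them inhibitory, and is switched on by calcium and calmodulin. Nos3 is the form of the vessel lining, and Nos2 is induced in glia and macrophages by inflammatory signals. The data measure RNA only, and neither enzyme activity nor cofactor levels.

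The promoters of both measured genes are shown to place the genes and to compare the sequence at their starts. Each sequence is from RefSeq on the rat build GRCr8 and runs 5′ to 3′ on the gene's strand, from 250 bases before to 50 bases after the start site. The Nos1 promoter lies at chr12:44371788-44372087 on the minus strand and the Nos3 promoter at chr4:11706532-11706831 on the minus strand. Capitals mark exact matches on either strand to TGACGTCA, the cyclic AMP response element, and to GGGCGG, the GC box.
Nos1: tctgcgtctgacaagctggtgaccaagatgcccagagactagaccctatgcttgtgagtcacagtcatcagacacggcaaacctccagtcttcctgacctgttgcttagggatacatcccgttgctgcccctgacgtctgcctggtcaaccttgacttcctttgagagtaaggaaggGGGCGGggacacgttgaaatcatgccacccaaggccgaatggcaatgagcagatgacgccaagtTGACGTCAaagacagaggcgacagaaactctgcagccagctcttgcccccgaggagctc
Nos3: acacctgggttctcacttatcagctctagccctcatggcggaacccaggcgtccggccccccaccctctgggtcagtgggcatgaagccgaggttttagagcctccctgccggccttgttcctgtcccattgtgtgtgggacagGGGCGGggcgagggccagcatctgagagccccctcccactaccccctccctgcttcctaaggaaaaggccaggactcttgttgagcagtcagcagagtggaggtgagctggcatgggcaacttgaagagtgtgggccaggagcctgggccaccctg
The Nos1 window held 1 cyclic AMP response element, beginning 9 bases before the start site, and 1.83% of the 33469 promoters of this length hold one on either strand. Both windows held 1 GC box, which 33.1% of promoters hold. The letters TATAAA were found in neither window, and 14.2% of promoters hold them on either strand. The Nos1 window was 55.3% G and C and the Nos3 window 63%. A match is a description of letters. Neither factor binding nor use of this start site was measured.

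Between 16991417 and 26588314 reads were assigned to genes per library. T0 control replicate 1 stood apart. Over all tested genes its root mean square difference in log2 CPM was 0.364 and 0.393 from the other T0 controls, which differed from each other by 0.253. Within the other 6 groups of 3 libraries this difference was at most 0.301. For samples 10 and 11 the title and the header of the count column name different libraries as the repeat. For the library titled 10, the name under which its counts were deposited goes with the header. Which of the 2 is right was not tested. Values below follow the titles, and values by header are given where the direction changes. Genes carry identifiers without symbols, and 0 of the 32494 identifiers matched a symbol in the reference table. For that reason 7 lists of 65 symbols, among them cofactor synthesis, partners and targets of the synthases, and markers of interneurons, vessel lining and microglia, were not tested, and the labelled tissue was not checked against its markers.

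Nos1 was detected in every library at a narrow range of levels. It had 985 to 1748 reads per library, with a median of 1229. Its level, in CPM (reads relative to library size) scaled by trimmed mean of M values (TMM), ran from 47.7 to 67.3 CPM with a median of 60.4 CPM. The highest library was 1.41-fold above the lowest. The SD within groups, pooled over the 7 groups of 3, was 4.83 CPM or 7.98% of the mean. Counting error alone gives an SD of 2.79% at the mean number of reads. In bulk aggregates, fewer cells that make a transcript and less of it per cell cannot be told apart.

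At 6 hours Nos1 stood at 59.9, 60.4 and 67.3 CPM with sepiapterin, against 66.8, 64.5 and 65.2 CPM in controls. Sepiapterin replicates 1 and 2 lay below the controls and replicate 3 above all of them, so the groups overlapped, as they did for all but 10.7% of genes. The means were 62.5 ± 4.10 CPM with sepiapterin and 65.5 ± 1.16 CPM in controls (SD, n = 3 each). Expressed as a log2 fold change this was -0.064 ± 0.085 (SE), with an adjusted p of 1 in edgeR's quasi-likelihood test. The 95% interval ran from 0.846-fold to 1.08-fold. It was -0.12 on the log2 scale without sepiapterin replicate 3, -0.036 without replicate 1 and -0.041 without replicate 2.

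At 12 hours Nos1 stood at 61.6, 63.3 and 52.2 CPM with sepiapterin, against 58.0, 57.3 and 63.7 CPM in controls. The lowest value of these 6 was sepiapterin replicate 3 and the highest was control replicate 3. The groups overlapped, and 22.3% of genes had groups that did not. The means were 59.0 ± 5.96 CPM with sepiapterin and 59.7 ± 3.53 CPM in controls (SD, n = 3 each). On the log2 scale the difference was -0.013 ± 0.086 (SE), with an edgeR adjusted p of 0.96 and a 95% interval of 0.876-fold to 1.12-fold. With T12 controls taken by file header it was 0.035, with an edgeR adjusted p of 0.89, so the sign depended on which library stood for samples 10 and 11. It was 0.034 without control replicate 3 and 0.068 without sepiapterin replicate 3.

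At 24 hours Nos1 stood at 60.6, 59.1 and 57.3 CPM with sepiapterin, against 57.7, 58.7 and 67.3 CPM in controls. The sepiapterin libraries lay close together, near control replicates 1 and 2, and control replicate 3 was higher than the other 5. The groups overlapped, and 23.5% of genes had groups that did not. The means were 59.0 ± 1.64 CPM with sepiapterin and 61.2 ± 5.30 CPM in controls (SD, n = 3 each). As a log2 fold change the difference was -0.054 ± 0.088 (SE), with an edgeR adjusted p of 0.79 and a 95% interval of 0.849-fold to 1.09-fold. Without control replicate 3 it was 0.019, so this library set the sign.

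**Figure D1:**
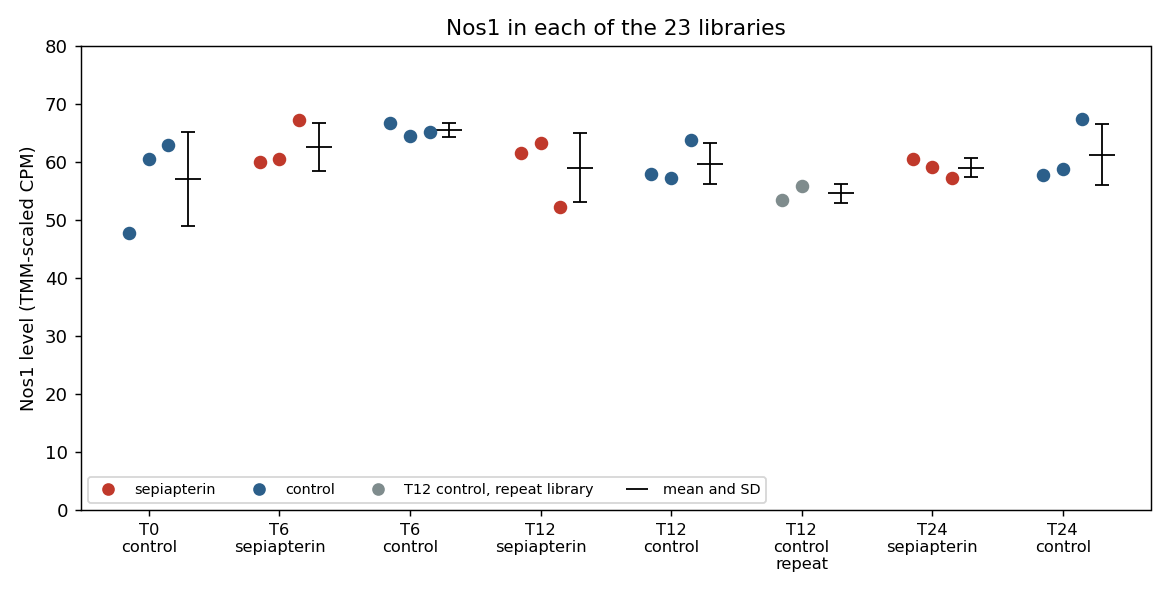
Nos1 level in TMM-scaled CPM (vertical axis, from 0) in each of the 23 libraries by time and treatment (horizontal axis). Points are libraries and black bars are the mean and SD of the group. All libraries lie between 47.7 and 67.3 CPM, sepiapterin and control libraries overlap at T6, T12 and T24, and T0 control replicate 1 is the lowest.

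Averaged over the 3 times, the log2 fold change of Nos1 with sepiapterin was -0.044 ± 0.050 (SE), with an edgeR adjusted p of 0.69. The 95% interval ran from 0.903-fold to 1.04-fold. The mean difference, sepiapterin minus control, was -1.94 CPM (exact two-sided permutation p = 0.29 over 8000 exchanges of labels within times). By title, T6 and T12 lie within the first library batch and T24 within the second, with values given above. By file header, the T12 control libraries used here for samples 10 and 11 are the repeats of the second batch. Comparisons with the T12 controls would then mix both batches. The estimates at T6, T12 and T24 by title were all below 0, each by less than its standard error.

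Nos1 was read against the other genes in the same fit. At T6 edgeR called 0 of 14035 genes changed at an adjusted p below 0.05 (0%), where 301 had an unadjusted p below that value and DESeq2 also called 0. At T12 it called 0.0214% of genes, at T24 4.17% and in the mean over times 1.03%. Nos1 was among the genes not called in each. At T6, 61.2% of tested genes had a smaller absolute log2 fold change than Nos1, at T12 8.66% and at T24 28.2%. The median absolute log2 fold change of all tested genes was 0.048 at T6, 0.089 at T12 and 0.10 at T24.

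The effect of sepiapterin on Nos1 was also compared between times. The log2 fold change differed by -0.041 ± 0.12 (SE) between T24 and T12, by 0.011 ± 0.12 between T24 and T6 and by 0.051 ± 0.12 between T12 and T6. The edgeR adjusted p-values were 0.93, 0.99 and 0.94. Of all genes, edgeR called 0.235% for the first of these differences and 0% for the other two, where 1662 and 1049 genes had an unadjusted p below 0.05 and DESeq2 called 53 and 0. The 95% intervals of these differences on the log2 scale ran from -0.30 to 0.21, from -0.24 to 0.26 and from -0.20 to 0.30. The first of these changed sign without T24 control replicate 3 (0.036) or T12 sepiapterin replicate 2 (0.013). The second did so without T24 sepiapterin replicate 1, T24 control replicate 1 or 2, T6 sepiapterin replicate 1 or 2, or T6 control replicate 1 (-0.029 to -0.0031). The third did so without T12 sepiapterin replicate 2 (-0.0049).

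**Figure D2:**
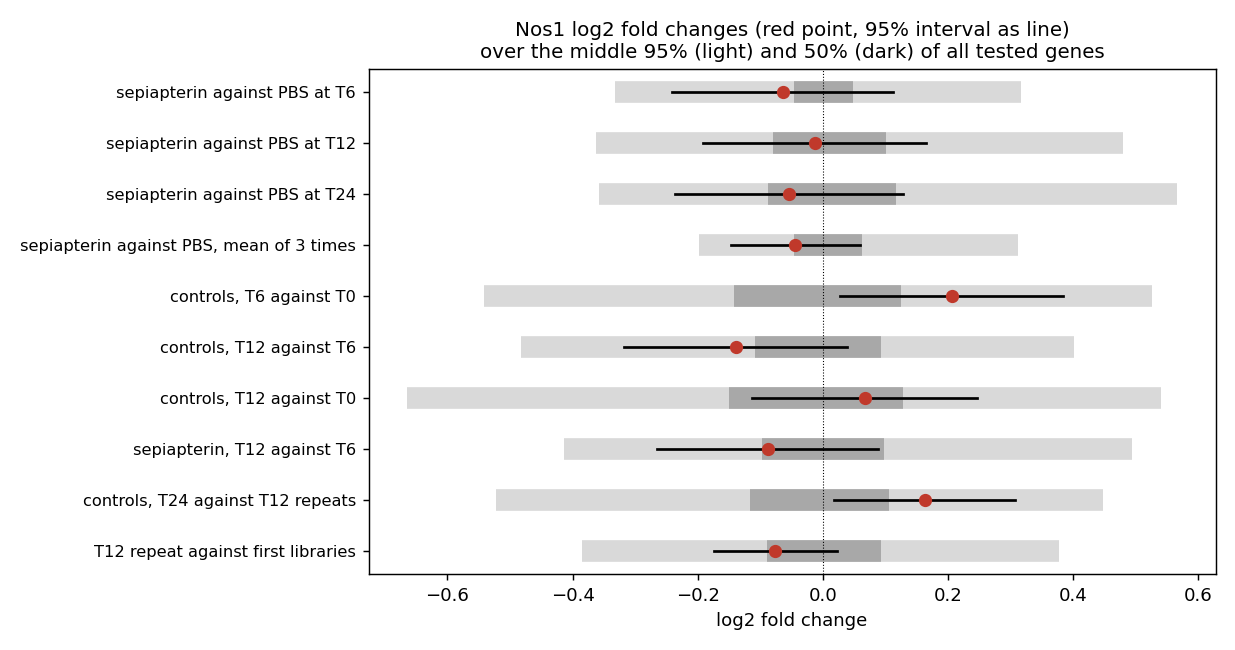
Log2 fold change of Nos1 (red point, with its 95% interval as a black line) in 10 comparisons, over the middle 95% (light grey) and 50% (dark grey) of the log2 fold changes of all genes tested. The comparisons of sepiapterin with PBS lie between -0.064 and -0.013 with intervals across 0. The intervals of T6 against T0 controls and T24 against T12 repeat controls lie above 0 before adjustment over all genes.

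Over time, the T6 controls were the highest group for Nos1. Their 3 libraries, at 64.5 to 66.8 CPM, all lay above the T0 controls, at 47.7, 60.5 and 62.9 CPM. The means were 65.5 ± 1.16 CPM in T6 controls and 57.0 ± 8.17 CPM in T0 controls (SD, n = 3 each). The log2 fold change was 0.21 ± 0.086 (SE), with an unadjusted p of 0.025 and an edgeR adjusted p of 0.091, so Nos1 was not called. Groups did not overlap for 36% of the genes tested in this comparison, and 21.6% were called.

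This value rested on single libraries. It was 0.10 without T0 control replicate 1, which stood apart (edgeR adjusted p = 0.33). It was 0.28 without T0 control replicate 3 (edgeR adjusted p = 0.036), and 0.24 with library size as the only scaling (edgeR adjusted p = 0.038). Over all alternatives the adjusted p ranged from 0.036 to 0.33. Since the batch of T0 is not given, time and library preparation cannot be told apart here.

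At 12 hours the T12 controls lay below the T6 controls for Nos1, at 57.3 to 63.7 CPM against 64.5 to 66.8 CPM. The log2 fold change was -0.14 ± 0.086 (SE), with an edgeR adjusted p of 0.37. Groups did not overlap for 29.3% of genes in this comparison and 4.67% were called. In sepiapterin libraries, Nos1 stood at 52.2 to 63.3 CPM at T12 and at 59.9 to 67.3 CPM at T6. The groups overlapped, and 30.6% of genes had groups that did not. The log2 fold change was -0.088 ± 0.085 (SE), with an edgeR adjusted p of 0.59, where 4.37% of genes were called. It was -0.0069 without T12 sepiapterin replicate 3, -0.034 without T6 sepiapterin replicate 3 and -0.14 without T12 sepiapterin replicate 2. Between T12 and T0 controls it was 0.066 ± 0.087 (SE, edgeR adjusted p = 0.62), where 24.9% of genes were called. Without T0 control replicate 1 this last value was -0.040.

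T24 controls were compared with the T12 repeats, which by title share the second library batch. Nos1 stood at 57.7, 58.7 and 67.3 CPM in T24 controls and at 53.4 and 55.8 CPM in the repeats. All T24 controls were higher. Groups did not overlap for 43.8% of genes in this comparison. For Nos1 the log2 fold change was 0.16 ± 0.069 (SE), with an unadjusted p of 0.029 and an edgeR adjusted p of 0.16, where 5.54% of genes were called. It was 0.089 without T24 control replicate 3 (edgeR adjusted p = 0.51) and 0.090 with the repeats taken by file header (edgeR adjusted p = 0.65).

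The paired libraries of samples 10 and 11 show how far Nos1 moves when the same sample is prepared again. Sample 10 gave 53.4 CPM in its repeat and 58.0 CPM in its first library, and sample 11 gave 55.8 CPM in its repeat and 57.3 CPM in its first library. Both repeats were lower by title. By file header the repeats are the higher libraries, and the log2 fold change below changes sign to 0.076. With sample as a block the log2 fold change was -0.076 ± 0.050 (SE), with an edgeR adjusted p of 0.31 and a 95% interval of 0.886-fold to 1.02-fold. This comparison called 18.7% of genes, or 2527, where DESeq2 called 277. The fit had 1 residual degree of freedom, so its SE and interval lean on the spread shared across genes.

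From low to high, the group means of Nos1 were 54.6 CPM in T12 repeats, 57.0 in T0 controls, 59.0 with sepiapterin at T24, 59.0 with sepiapterin at T12, 59.7 in T12 controls, 61.2 in T24 controls, 62.5 with sepiapterin at T6 and 65.5 in T6 controls. The libraries of each neighbouring pair in this order overlapped in range.

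**Figure D3:**
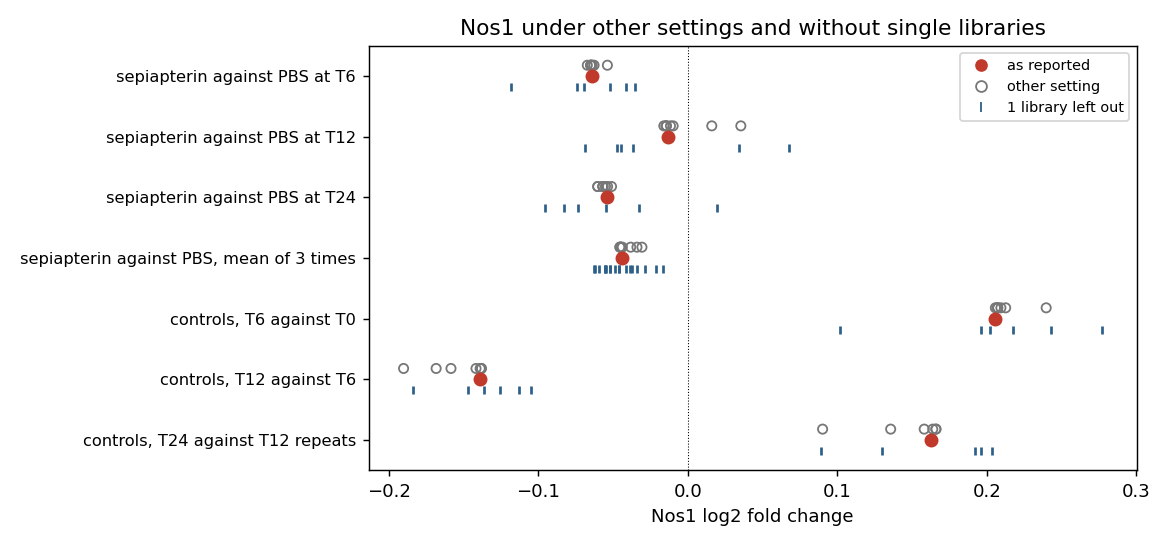
Log2 fold change of Nos1 (horizontal axis) in 7 comparisons as reported (red), under other settings (open circles) and with 1 library left out (blue ticks). The mean over 3 times stays between -0.063 and -0.017, values at T12 and T24 lie on both sides of 0, and T6 against T0 controls spans 0.10 to 0.28.

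The genes most like Nos1 were found by Pearson's correlation of log2 CPM over the 21 libraries in 7 groups, among 14034 other genes. ENSRNOG00000009341 came first (r = 0.90, Spearman's rho 0.85) and ENSRNOG00000033556 second (r = 0.88, Spearman's rho 0.81). Both identifiers have no symbol in the sources used here. The level of ENSRNOG00000009341 averaged 132 CPM in T6 controls and 89.6 CPM in T0 controls, and that of ENSRNOG00000033556 averaged 220 CPM in T6 controls and 159 CPM in T0 controls. Both genes were chosen for their likeness to Nos1 in these libraries, so their levels are no separate evidence on Nos1. An r above 0.5 was found for 7.72% of genes and one below -0.5 for 6.27%. The libraries share times, batches and the low T0 control replicate 1, so these values describe a likeness over these libraries alone.

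Nos3 was close to the limit of detection. It had 0 to 9 reads per library, with a median of 4 and 90 reads over the 23 libraries. No library reached 10 reads, the minimum count of the filter, which at the median depth of 21901345 reads corresponds to 0.457 CPM. Nos3 therefore was not tested in the filtered fit. A floor was set at 3 reads, or 0.111 to 0.180 CPM depending on the library, and 7 libraries had fewer than 3 reads. For a count of 0 the upper end of the exact two-sided Poisson 95% interval is 3.69 reads. These limits cover counting error only.

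At 6 hours Nos3 had 5, 3 and 8 reads with sepiapterin, against 5, 5 and 5 reads in controls. At 12 hours it had 6, 3 and 7 reads with sepiapterin, against 4, 5 and 4 reads in controls. The groups overlapped at both times. At 24 hours it had 2, 1 and 1 reads with sepiapterin, against 0, 2 and 2 reads in controls, all below 3 reads. T0 controls had 4, 3 and 9 reads, and the T12 repeats had 5 and 1.

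**Figure D4:**
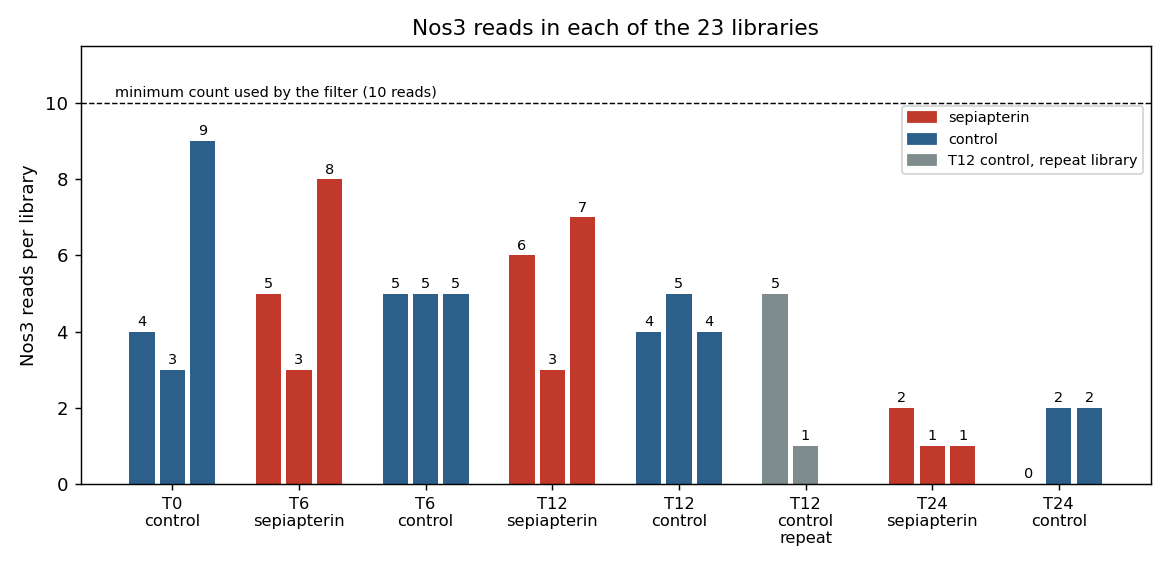
Nos3 reads (vertical axis, from 0) in each of the 23 libraries by time and treatment (horizontal axis), with the count printed on each bar. The dashed line is the filter's minimum of 10 reads, which no library reached. All 6 libraries at T24 had 2 reads or fewer.

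Summed over the libraries of a group, Nos3 had 16 reads with sepiapterin and 15 in controls at T6. It had 16 with sepiapterin and 13 in controls at T12, and 4 with sepiapterin and 4 in controls at T24. The difference in mean level, sepiapterin minus control, was 0.019 CPM at T6, 0.0097 CPM at T12 and -3.2e-05 CPM at T24. Exact two-sided permutation tests gave p = 0.9, 1 and 1, where 3 libraries against 3 cannot go below 0.1. Over the 3 times together the difference was 0.0095 CPM (exact permutation p = 0.77 over 8000 arrangements within times, smallest possible 0.00025). By file header the difference was 0.061 CPM at T12 and 0.027 CPM over the 3 times. A fit without the filter gave a log2 fold change of 0.066 ± 0.44 (SE) for the mean over times, with an edgeR adjusted p of 1 and a 95% interval of 0.571-fold to 1.92-fold. Leaving out single libraries moved the difference across 0 at each time and over the 3 times (-0.011 to 0.027 CPM), within -0.044 to 0.072 CPM at T6, -0.024 to 0.059 CPM at T12 and -0.038 to 0.020 CPM at T24. A difference of Nos3 with sepiapterin was not detectable at this depth.

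Nos3 reads were fewest at 24 hours. The 6 libraries at T24 held 8 reads, or 0.0745 CPM with an exact Poisson 95% interval of 0.0322 to 0.147. The 15 libraries at T0, T6 and T12 held 76 reads, or 0.222 CPM with an interval of 0.175 to 0.278. This grouping of times pools both treatments and was not among the planned comparisons, so the intervals are a description and not a test. At T0 the level was 0.247 CPM (0.141 to 0.401), at T6 0.218 CPM (0.148 to 0.309) and at T12 0.215 CPM (0.144 to 0.309). Single libraries ran from 0 to 0.115 CPM at T24 and from 0.122 to 0.404 CPM at T0, T6 and T12 by title. The T12 repeats, prepared with T24 by title, stood at 0.246 and 0.0491 CPM. By file header the library at 0.0491 CPM is a first T12 control, and it lies within the range of T24. T24 controls against the T12 repeats, in a fit without the filter, differed by -0.94 ± 1.04 (SE) on the log2 scale (edgeR adjusted p = 0.70). T24 is a batch of its own apart from these repeats, so time and library preparation cannot be told apart, and the intervals cover counting error only. In the RefSeq table of GRCr8 the Nos3 gene overlaps Atg9b, and Nos1 overlaps LOC120095990 and LOC120095991. The extent of these overlaps was not measured, and the reads were counted on another build, Rnor_6.0. Because no source used here states the strand setting of the counting, reads at such overlaps are uncertain.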

How the data were processed

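The authors deposited raw read counts per Ensembl gene, 1 table per library, with 32494 identifiers and 5 summary lines, per the file headers. The submitters' processing notes name cutadapt 1.8, STAR 2.5.2b, HTSeq 0.6.1 and the rat build Rnor_6.0. No source used here gives the annotation release or the strand setting. The summary lines (14.8 to 17.1% of alignments outside genes, 23.5 to 25.0% aligned to several places, 0.224 to 0.269% ambiguous) were left out.

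A fit of 21 libraries in 7 groups with edgeR 4.0.16 (R 4.3.3) used quasi-likelihood with robust spread, TMM scaling and filterByExpr with a minimum count of 10. It had 14 residual degrees of freedom. T24 controls and T12 repeats were fitted in 8 libraries with the T24 sepiapterin libraries (13653 genes, 5 residual degrees of freedom). The paired libraries of samples 10 and 11 were fitted with sample as a block (13505 genes, 1 residual degree of freedom). P-values were adjusted by Benjamini-Hochberg across every gene of a fit and called below 0.05. Levels are CPM scaled over all 23 libraries. The scripts were tested on simulated data.

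The named genes are the synthases plus, for each that passed the filter, the 2 genes of highest Pearson correlation (log2 CPM, prior count 2). The members, lists and tests were chosen with earlier results of these data known. Groups follow the sample titles. Whether replicates are separate cultures is not stated in the labels. The p-values therefore reflect the spread among these libraries, part of which may be technical. Alternatives were other scalings, DESeq2 1.42.0, no filter, other choices of T12 control library, fewer groups and libraries left out in turn.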

Additional observations from a re-analysis of the deposited data

How the results depend on the processing

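For Nos1, 13 log2 fold changes were recomputed under 194 alternatives, of which 175 kept direction and side of the threshold, 16 changed sign, 2 passed the threshold and 1 (DESeq2 on the paired libraries) kept direction with no adjusted p. Each sign change was in a value not called. At T12 the value was 0.035 by file header and 0.016 with the libraries of samples 10 and 11 summed, and the paired libraries gave 0.076 by file header (added after seeing the data). Leaving out single libraries gave -0.069 to 0.068 at T12, -0.095 to 0.019 at T24, and -0.040 to 0.14 for T12 against T0 controls. For the effects of T24 minus T12, T24 minus T6 and T12 minus T6 it gave -0.12 to 0.036, -0.029 to 0.086 and -0.0049 to 0.13. For T6 against T0 controls it gave 0.10 to 0.28, and library size as the only scaling gave 0.24. The cause was not tested. Nos3 at T24 differed by 1.85e-05 CPM with library size only.

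Counts of all genes called moved more. Over the alternatives they ran from 0 to 1 at T6 (0 as reported), 0 to 376 at T12 (3), 11 to 1463 at T24 (585) and 33 to 755 for the mean of times (144). They ran from 0 to 567 for T24 minus T12 (33), 0 to 372 for T24 minus T6 (0) and 0 to 2 for T12 minus T6 (0). In controls they ran from 1644 to 3265 for T6 against T0 (3035), 1409 to 4077 for T12 against T0 (3501), 77 to 1523 for T12 against T6 (655) and 22 to 1434 for T24 against T12 repeats (757). With sepiapterin, T12 against T6 ran from 98 to 1035 (614), and the paired libraries from 277 to 2527 (2527). With T12 controls taken by file header, edgeR called 79 genes for T24 against T12 repeats and 167 for T12 against T6 controls, fewer than by title. For sepiapterin against PBS it then called 10 at T12 and 818 at T24, more than by title. Whether title or header names the repeats was not tested. The labels pair no control with a sepiapterin library, but title numbers of 9 such pairs are 95 apart, and a replicate block on these was added after seeing the data. It gave Nos1 values of -0.065 at T6, -0.014 at T12, -0.055 at T24 and -0.045 for the mean, with no change of call, and 376, 1203 and 755 genes called at T12, at T24 and for the mean. Deviations from group means correlated at -0.11 to 0.14 within these pairs, above 0.1 in 1, and 3 of the 9 sepiapterin libraries correlated best with their own number. With only 3 control libraries to match at each time, these values cannot decide whether the numbers mark pairs. As the labels pair no libraries, the numbers were not treated as pairs in the values reported.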
